A study of Homo sapiens with 27 samples.

Results

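PEG3 and 9 other imprinted genes (PEG10, MEST, DLK1, MEG3, NDN, H19, IGF2, CDKN1C and GNAS) were examined in RM82, an Ewing sarcoma cell line. The set was chosen by the counts of PEG3 transcripts, which exceeded those of the DMSO libraries in the ones labelled SGC-CLK-1. All values of PEG3 in this contrast are therefore descriptions without a test, and the question was whether the other imprinted genes followed. Members were found by pairing each deposited transcript identifier, without its version, with a GENCODE release 44 symbol. This gave 89 transcripts of 93530 listed in any of the 6 libraries, from 7 of the 10 genes. The cells had been kept for 24 h either with SGC-CLK-1, an inhibitor of the CLK kinases that phosphorylate SR splicing factors, or with its solvent DMSO, with 3 libraries of each. Both groups are the same unmodified parental line, and the dose is not given in the sources used here. The study describes its experiments in general as independently replicated but does not say how these libraries were replicated, so p-values measure the spread between these libraries. The cDNA was sequenced as long reads on an Oxford Nanopore instrument, and whether reads spanned whole transcripts was not examined. The cDNA carried unique molecular identifiers (UMIs), short tags that let copies of the same molecule be counted once.

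Imprinted genes are transcribed mainly from a single parental copy, marked by DNA methylation that is set in the germ line. Many lie in clusters under a shared control region, and paternally expressed members such as PEG3 and IGF2 are often set against maternally expressed members such as H19 and CDKN1C in the control of growth. PEG3 encodes a large zinc finger protein, and imprinting is often altered in tumour cell lines, where a gene can be silent or read from both copies. These data hold no allele information, so they bear on levels and isoforms only.

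The total count was 666702, 362826 and 373004 in SGC-CLK-1 replicates 1, 2 and 3, and 416352, 523456 and 372876 in DMSO replicates 1, 2 and 3. A single count was therefore worth 1.5 to 2.76 CPM (counts scaled to a library total of 1000000), and 3 counts, the limit that a count of 0 allows, came to 4.50 to 8.27 CPM per library. Such limits and intervals cover counting error only. All directions below rest on the deposited labels, and an SGC-CLK-1 or DMSO library is a library labelled so. No gene here checks whether the kinases were inhibited, and the study's own plots of other transcripts appear to carry the opposite labels, so the sign of every difference may be reversed. Among 14 Ewing sarcoma markers, 12 had counts, with STEAP2 the most abundant, and their summed level was 2532, 2621 and 3008 CPM in the SGC-CLK-1 libraries and 3197, 2814 and 3277 CPM in the DMSO libraries. FLI1, a fusion partner in many of these tumours, and the marker NKX2-2 had no counts, whereas ERG, looked up after these values were seen, had 88, 24 and 68 counts in the SGC-CLK-1 libraries and 38, 52 and 38 in the DMSO libraries. Markers of other lines were low. The 7 myeloma and B cell markers summed to 15.3 to 38.4 CPM, with PTPRC the most abundant and SDC1, TNFRSF17, IGKC and IGLL5 at 0. The 5 epithelial markers summed to 32.2 to 76.4 CPM, with KRT8 the most abundant and KRT19 at 0. Of the 4 muscle markers only DES was counted, once, and MYOD1, MYOG and MYF5 were at 0.

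The sequences in which the isoforms of the 3 abundant members differ are given first, all from GRCh38 (hg38) and written 5′ to 3′. PEG3 (ENSG00000198300) lies at chr19:56810077-56840728 on the minus strand, and its 5 tested transcripts use either a long or a short form of an internal exon, of 480 bases (chr19:56824262-56824741) or 166 bases. Another form, of 253 bases, is in PEG3-217 and PEG3-209, which did not pass the filter on low counts. The splice acceptors of the long and short forms, with the first exon bases in capitals, lie at chr19:56824727-56824756 for the longer form and chr19:56824413-56824442 for the shorter form.
PEG3 acceptor of the longer exon: ccttacgatccacagGTCCCTGAGTACTGA
PEG3 acceptor of the shorter exon: ctcgattggttgcagCCGGAGACCCGCACC
PEG10 (ENSG00000242265, chr7:94656325-94669695, plus strand) derives from a retrotransposon and makes a longer protein when ribosomes slip back at a heptamer within its coding exon, in capitals here at chr7:94664494-94664523. The annotation writes the slip as a gap of 2 bases (chr7:94664508-94664509) just before the heptamer.
PEG10 slippery site: caaagtcttcgccggcGGGAAACtccccgg
GNAS (ENSG00000087460, chr20:58839718-58911192, plus strand) encodes the stimulatory G protein subunit Gs-alpha and includes or skips exon 3, a coding exon of 45 bases (chr20:58898941-58898985), in capitals with 12 intron bases on each side. The next exon can also start 3 bases earlier, at chr20:58903528-58903530, in capitals in the second line.
GNAS exon 3: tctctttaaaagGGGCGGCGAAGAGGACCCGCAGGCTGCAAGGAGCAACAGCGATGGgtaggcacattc
GNAS exon 4 start: tttcaatcccactgCAGtgagaaggcaacc

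The 5 PEG3 transcripts that passed the filter on low counts were each higher in every SGC-CLK-1 library than in any DMSO library, as 11.3% of all transcripts tested were. The gene had 12 listed transcripts of 18 annotated and 540 counts in all. The canonical PEG3-201 (ENST00000326441, 8754 bases, a protein of 1588 amino acids) uses the longer exon. It had 31, 23 and 26 counts in the SGC-CLK-1 libraries and 11, 8 and 4 in the DMSO libraries. Scaled to CPM these were 46.5, 63.4 and 69.7 against 26.4, 15.3 and 10.7, a mean of 59.9 ± 12 (SD, n = 3) against 17.5 ± 8.07 (SD, n = 3). The log2 fold change was 1.73 (SE 0.36).

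**Figure D1:**
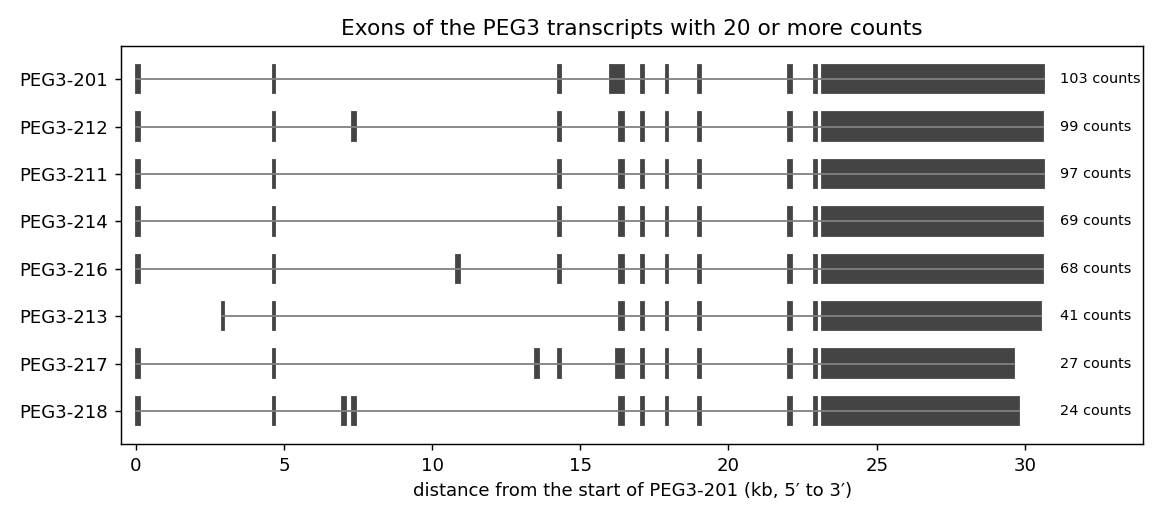
Exons (boxes) of the 8 PEG3 transcripts with 20 or more counts, drawn to scale against distance in kb from the start of PEG3-201, with each transcript's total count over the 6 libraries at the right. All end in a large last exon (7498 bases in PEG3-201) that differs in length at its 3′ end, and they also differ in small exons upstream.

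The other 4 PEG3 transcripts that passed carry the shorter exon and code for 1464 amino acids. PEG3-212 (ENST00000649233), which has an extra exon, had 30, 23 and 27 counts against 7, 8 and 4, a log2 fold change of 2.0 (SE 0.37). PEG3-211 had 29, 19 and 27 counts against 9, 9 and 4 (log2 fold change 1.70, SE 0.37), and PEG3-214 had 21, 10 and 18 against 9, 8 and 3 (log2 fold change 1.21, SE 0.42). PEG3-216 had 21, 10 and 21 counts against 6, 9 and 1 (log2 fold change 1.62, SE 0.46), with the lowest value of any of these in DMSO replicate 3. Of the 7 PEG3 transcripts that did not pass, PEG3-213 had 16, 3 and 7 counts against 5, 6 and 4, PEG3-217 had 11, 3 and 5 against 3, 4 and 1, and PEG3-218 had 13, 3 and 5 against 1, 2 and 0, while the remaining 4 had 1 to 8 each. The 7 together had 41, 10 and 20 counts against 9, 16 and 8, groups that overlap.

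**Figure D2:**
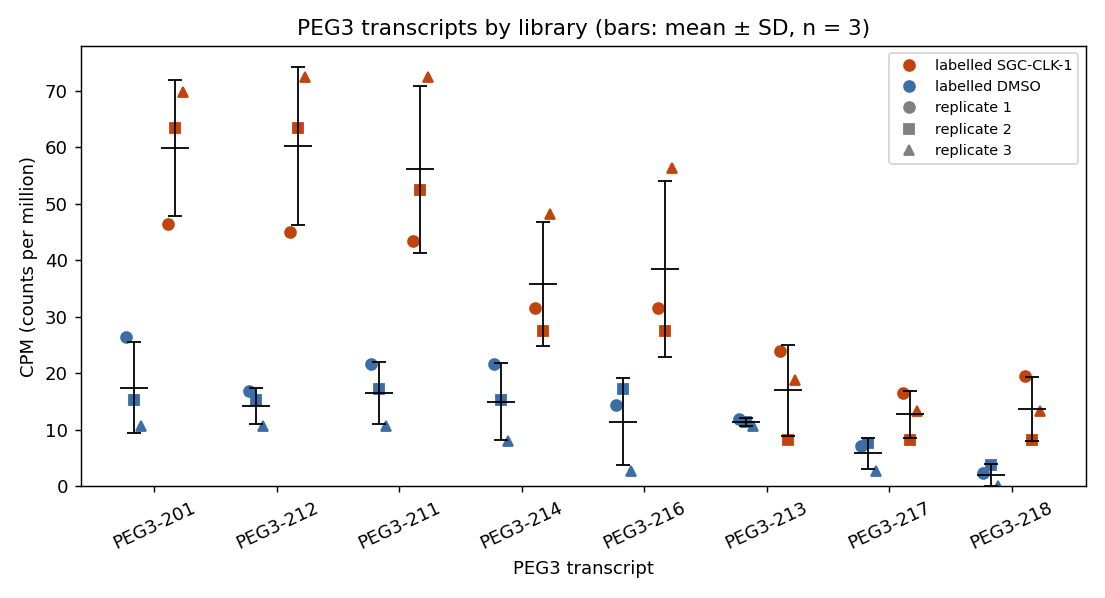
CPM of the 8 PEG3 transcripts with 20 or more counts, by library (points, shaped by replicate), with the mean and SD of 3 libraries. For the 5 tested transcripts on the left, every SGC-CLK-1 library lies above every DMSO library; PEG3-213 overlaps.

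These 5 transcripts passed the filter only through the SGC-CLK-1 libraries: the filter asks for 25.3 CPM in at least 3 libraries, and only PEG3-201 reached that in any DMSO library, DMSO replicate 1. Hence it selects for a difference, and the count of 4 of 5 past an adjusted p of 0.05 supports nothing. Across all 7840 transcripts tested, edgeR called 310 in either direction, 3.95%, of which 145 (1.85%) were higher in the SGC-CLK-1 libraries. The transcripts are not independent either. The 7 others in the exon plot share 96.7% to 99.9% of their bases with PEG3-201, and the authors kept secondary alignments, so a molecule may be counted on several transcripts. The counts therefore do not say which form of the exon the added molecules carried, and PEG3 usage, chosen with the same contrast, is given no test: its tested transcripts departed from the gene's overall change by -0.52 (PEG3-214) to 0.27 (PEG3-212) on the log2 scale.

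Summed to the gene, PEG3 had 173, 95 and 139 counts in the SGC-CLK-1 libraries and 51, 58 and 24 in the DMSO libraries. In CPM these sums were 259, 262 and 373 against 122, 111 and 64.4, with means of 298 ± 64.7 (SD, n = 3) and 99.2 ± 30.7 (SD, n = 3), a ratio of 3.0. The highest library was SGC-CLK-1 replicate 3 and the lowest DMSO replicate 3, and the groups did not overlap, as in 12.2% of all genes on this side. The log2 fold change was 1.5 (SE 0.27). All 6 libraries passed the filter's level at the gene level. A sum can hold the same molecule several times, and PEG3's was 5.24 times that of its most abundant transcript.

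**Figure D3:**
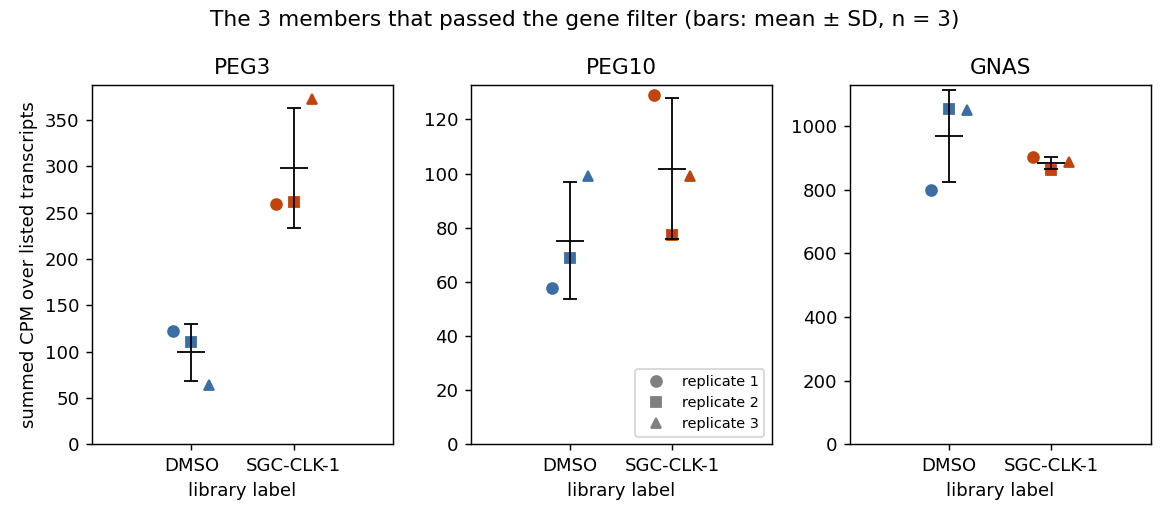
Summed CPM of PEG3, PEG10 and GNAS by library label (points are libraries, shaped by replicate; bars are mean and SD of 3). The labels separate the PEG3 values, from 64.4 to 122 against 259 to 373 CPM, and overlap for PEG10 and GNAS.

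PEG10 did not pass the test. It is paternally expressed and its product is a domesticated retrotransposon protein needed in the placenta. Its transcripts summed to 86, 28 and 37 counts in the SGC-CLK-1 libraries and 24, 36 and 37 in the DMSO libraries, or 129, 77.2 and 99.2 CPM against 57.6, 68.8 and 99.2 CPM. SGC-CLK-1 replicate 1 was highest, and the others overlapped. The means were 102 ± 26.0 (SD, n = 3) and 75.2 ± 21.5 (SD, n = 3), a log2 fold change of 0.39 (SE 0.32, 95% interval -0.23 to 1.01; edgeR quasi-likelihood test, Benjamini-Hochberg adjusted p = 0.64 over 6344 genes). It was 0.14 without SGC-CLK-1 replicate 1 and 0.65 without DMSO replicate 3. No PEG10 transcript passed the filter on its own. The most abundant, PEG10-202, had 20, 6 and 9 counts against 6, 9 and 9. The 3 other main transcripts lie wholly within the bases of PEG10-202, which has a longer first exon (256 against 35 bases). These 3 differ from each other only in the annotated reading frame or gap, so reads cannot tell the 3 apart. The slippage shown above is an event of translation that RNA counts do not see.

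GNAS was the most abundant member. Its most abundant transcript, GNAS-231, had a mean of 135 CPM in the SGC-CLK-1 libraries and 142 CPM in the DMSO libraries. The same means were 59.9 and 17.5 CPM for PEG3-201, and 23.6 and 18.6 CPM for PEG10-202. GNAS transcripts summed to 601, 313 and 331 counts in the SGC-CLK-1 libraries and 333, 552 and 391 in the DMSO libraries. In CPM these were 901, 863 and 887 against 800, 1055 and 1049, with means of 884 ± 19.6 (SD, n = 3) and 968 ± 145 (SD, n = 3). The SGC-CLK-1 values lay inside the range of the DMSO values. The log2 fold change was -0.21 (SE 0.19, 95% interval -0.58 to 0.16; edgeR adjusted p = 0.68), and -0.35 without DMSO replicate 1 or -0.13 without DMSO replicate 3. GNAS and PEG10 are the only members beside PEG3 in the gene fit, and 0 of the 2 passed an adjusted p of 0.05, where 15 of 6344 genes did (0.236%), and 0 passed at an unadjusted p under 0.05, by edgeR (13.9% of all genes) and by DESeq2 (10.8%). DESeq2 called 1.69% of genes at an adjusted p of 0.05 and neither of the 2.

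The GNAS locus makes several products from alternative first exons: the maternal NESP55, the paternal XLas and A/B, and Gs-alpha, which most tissues read from both copies. Of its 77 annotated transcripts 49 were listed and 15 tested. By edgeR 0 of the 15 passed an adjusted p of 0.05, where 3.95% of all transcripts did (smallest edgeR adjusted p = 0.27, for GNAS-244). By DESeq2 0 of the 5 given an adjusted p passed, beside 1.44% of all transcripts tested. That share counts transcripts without a DESeq2 adjusted p as not passing. At an unadjusted edgeR p under 0.05 there was 1 (18% over all transcripts), GNAS-244, a retained-intron model with a log2 fold change of 0.57 (SE 0.28), and by DESeq2 0 of the 15 (10.6%). The log2 fold changes of the 15 were 4 positive and 11 negative with a median of -0.16, beside 49.5% positive and a median of -0.01 over all transcripts tested. GNAS-231, also a retained-intron model, had 104, 40 and 52 counts against 60, 74 and 52 and a log2 fold change of -0.04 (SE 0.22, edgeR adjusted p = 0.95). GNAS-215 of the XLas class was the only tested GNAS transcript whose groups did not overlap, lower with SGC-CLK-1 (log2 fold change -0.51, SE 0.34, edgeR adjusted p = 0.46), as in 11.7% of all transcripts tested.

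By first exon, the groups overlapped in each of the 5 classes. The classes are broad, and some transcripts in them begin in a nearby exon other than the one named. The NESP55 class, 10 listed, had 124, 96.5 and 88.5 CPM in the SGC-CLK-1 libraries and 113, 176 and 156 CPM in the DMSO libraries. In this class GNAS-224, GNAS-240, GNAS-249, GNAS-251 and GNAS-259 begin downstream of the NESP55 exon. Of these, GNAS-249 had 2, 1 and 1 counts against 4, 11 and 4, and GNAS-251 had 1, 0 and 0 against 3, 10 and 4. XLas transcripts had 139, 124 and 115 CPM against 139, 176 and 215 CPM, with SGC-CLK-1 replicate 1 and DMSO replicate 1 at the same level. The Gs-alpha class, 8 listed, had 195, 237 and 169 CPM against 180, 260 and 292 CPM. It includes GNAS-247 (1, 0 and 0 counts against 1, 0 and 1), which begins just downstream of the Gs-alpha first exon. A/B transcripts had 81.0, 77.2 and 67.0 CPM against 79.3, 91.7 and 83.1 CPM. The class called internal here, 10 listed and starting further downstream, had 361, 328 and 448 CPM against 288, 352 and 303 CPM. It includes GNAS-232 and GNAS-250, which begin in the same upstream exon as GNAS-247, ending at chr20:58892209. The tested transcripts of NESP55, XLas and Gs-alpha ran from -0.51 to -0.07 in log2 fold change, the A/B transcript GNAS-233 had 0.11, and those of the internal class ran from -0.04 to 0.57. A test of transcript usage (diffSpliceDGE, Simes) gave GNAS an edgeR adjusted p of 1.0, where 5 of 1805 genes passed 0.05 (0.277%). Transcripts of different classes share their downstream exons, so the class sums are not independent. Each listed short transcript ending at chr20:58900410 had a lower mean CPM with SGC-CLK-1, such as GNAS-209 with 3, 2 and 3 counts against 8, 5 and 5. GNAS-241, which ends close by at chr20:58900363, went the other way (log2 fold change 0.51, SE 0.28). These short transcripts lie in several classes, passed no filter and were looked at after their values were seen, so the pattern was not tested.

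Exon 3 of GNAS, shown above, was present in 52.0%, 63.0% and 56.7% of the counts on the 4 full-length Gs-alpha coding transcripts (GNAS-201, GNAS-207, GNAS-210 and GNAS-211) in the SGC-CLK-1 libraries and in 52.3%, 56.5% and 55.9% in the DMSO libraries. These rest on 60 to 124 counts per library; exact Clopper-Pearson 95% intervals ran, for SGC-CLK-1 replicate 2, from 51.5% to 73.4% and, for DMSO replicate 1, from 39.5% to 64.9%. The mean was 57.2 ± 5.49 (SD, n = 3) against 54.9 ± 2.25 (SD, n = 3), a difference of 2.34 percentage points (two-sided exact permutation p = 0.6; 3 against 3 cannot give a p under 0.1). It was -0.53 without SGC-CLK-1 replicate 2 and 4.93 without SGC-CLK-1 replicate 1. The libraries overlapped. Over all 7 listed protein-coding transcripts with the Gs-alpha first exon, a choice made after the data were seen, the difference was 1.51 percentage points. These 7 leave out GNAS-247, which the Gs-alpha class above includes. Reads are assigned to transcripts with or without the exon by alignment, and a read may be kept on both kinds.

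**Figure D4:**
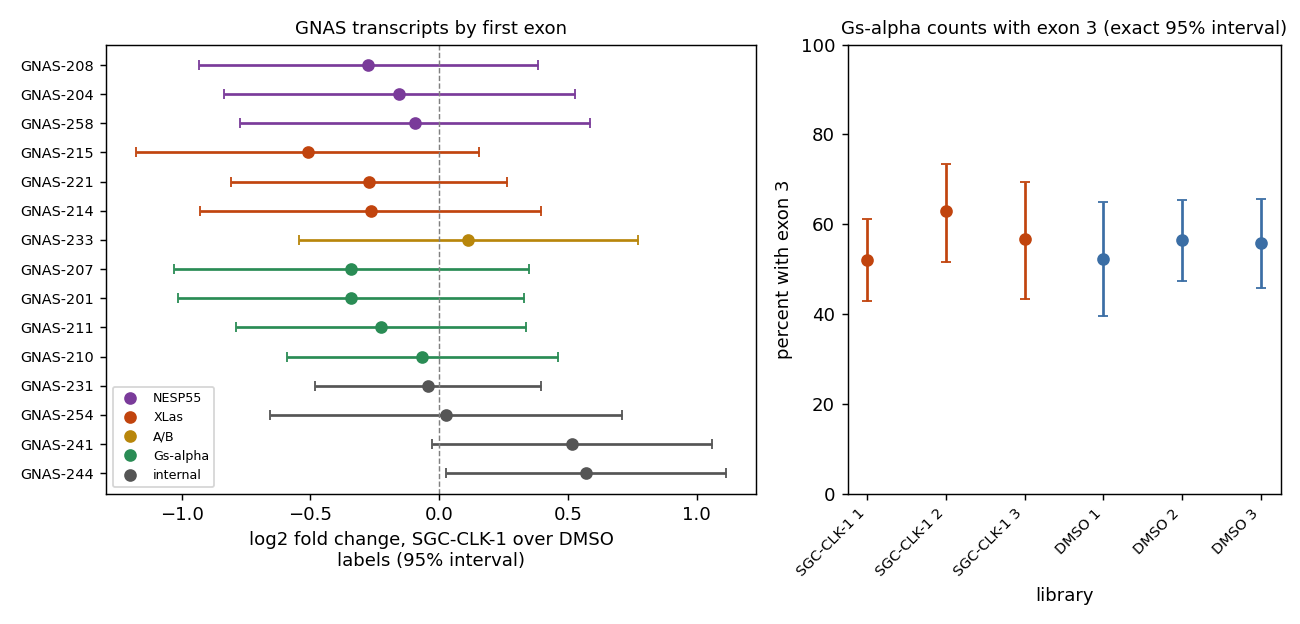
Left, log2 fold change (SGC-CLK-1 over DMSO labels) with 95% intervals for the 15 tested GNAS transcripts, coloured by first exon. Right, percent of full-length Gs-alpha coding counts with exon 3 in each library with exact 95% intervals. The shares lie between 52.0% and 63.0%, and all 6 intervals overlap.

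The other 4 counted members were near the limit. MEST is a paternally expressed gene for a hydrolase-like protein. It had 13, 0 and 4 counts in the SGC-CLK-1 libraries and 8, 1 and 0 in the DMSO libraries (two-sided exact permutation p = 0.8). Its most abundant transcripts, MEST-201 and MEST-202, tied at 4 counts each. MEST-201 had 2, 0 and 1 against 1, 0 and 0, and MEST-202 had 1, 0 and 1 against 2, 0 and 0. NDN, a MAGE-family gene, had 2 counts, both on NDN-201 in DMSO replicate 2 (two-sided exact permutation p = 1). IGF2, the growth factor gene, had 3 counts, all in DMSO replicate 1 and spread evenly over 3 transcripts (IGF2-203 among them), so they may be a single molecule (two-sided exact permutation p = 1). CDKN1C, the cyclin-dependent kinase inhibitor gene, had 2 counts in DMSO replicate 1 and 4 in DMSO replicate 3 and none in the SGC-CLK-1 libraries (two-sided exact permutation p = 0.4), with CDKN1C-201 counted once in each of those DMSO libraries. In 3 against 3 none of these could reach 0.05, and no fold is given.

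DLK1, MEG3 and H19 had no listed transcript. For the long noncoding RNAs MEG3 and H19 this cannot be read as absence of RNA: of 56357 annotated long noncoding transcripts 1032 (1.83%) were listed, against 47123 of 89067 protein-coding transcripts (52.9%). The abundant noncoding genes MALAT1, NEAT1, GAS5 and SNHG1, looked up after these values were seen, also had none, while GAPDH had 863 to 2073 counts per library. All 9 long noncoding genes among the other imprinted genes were without counts. DLK1, a protein-coding gene for a Notch-type ligand, had 0 counts in each library, which allows up to 4.50 to 8.27 CPM if its transcripts were in the authors' reference.

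A list of 45 other imprinted genes asked whether they followed PEG3, though no allele data show which are imprinted in RM82. Of these, 26 had counts, 7 passed the filter and 0 passed an adjusted p of 0.05 in either direction, by edgeR (0.236% of all genes) and by DESeq2 (1.69%). At an unadjusted edgeR p under 0.05 there was 1 (13.9% over all genes; DESeq2 also gave 1, with 10.8% over all genes), PPP1R9A, a brain-enriched actin-binding protein gene near PEG10. Its summed levels were 132, 176 and 150 CPM in the SGC-CLK-1 libraries and 88.9, 111 and 69.7 CPM in the DMSO libraries, which do not overlap, as in 12.2% of genes on this side. Its log2 fold change was 0.67 (SE 0.26, edgeR adjusted p = 0.27). Changes were positive in 4 and negative in 3 genes, with a median log2 fold change of 0.31, against 49.9% positive and a median of -0.00 over all genes tested. The median ran from 0.13 (without SGC-CLK-1 replicate 2) to 0.38 (without SGC-CLK-1 replicate 1) when each library was left out.

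The 5 most abundant of them gave edgeR values that did not pass. UBE3A, the ubiquitin ligase gene of the chromosome 15 cluster, had 172, 276 and 223 CPM against 103, 172 and 233 CPM (log2 fold change 0.31, SE 0.30, adjusted p = 0.71), a change that 1 library could move to 0.0296 (without DMSO replicate 1) or 0.61 (without DMSO replicate 3). SNRPN, a splicing protein gene of the same cluster, had 141, 132 and 91.2 CPM against 91.3, 176 and 102 CPM (log2 fold change -0.09, SE 0.30). BLCAP was level (log2 fold change -0.00, SE 0.24), and SGCE, the sarcoglycan gene beside PEG10, had -0.33 (SE 0.31), between -0.57 without DMSO replicate 3 and -0.15 without DMSO replicate 2. ZNF331 had 0.43, or 0.14 without DMSO replicate 3. NPAP1 had 0.47, between 0.14 without DMSO replicate 2 and 0.79 without DMSO replicate 1.

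The genes around PEG3 on chromosome 19 did not pass either. Of 16 neighbours (3 of which are also in the list above), 12 had counts and 5 passed the filter. By edgeR 0 of these 5 passed an adjusted p of 0.05 (0.236% of all genes). Nor did any of the 4 to which DESeq2 gave an adjusted p. DESeq2 called 1.69% of all genes tested, a share that counts genes without an adjusted p as not called. At an unadjusted p under 0.05 there were 2 by edgeR (13.9%), both lower, and 1 by DESeq2 (10.8%). ZNF470, a zinc finger gene, had 99.0, 91.0 and 83.1 CPM in the SGC-CLK-1 libraries and 110, 187 and 126 CPM in the DMSO libraries, without overlap, as 7.66% of genes on this side were (log2 fold change -0.71, SE 0.28, edgeR adjusted p = 0.26; -0.45 without DMSO replicate 2). ZNF805, another, had 82.5, 74.4 and 99.2 CPM against 110, 138 and 115 CPM, also without overlap (log2 fold change -0.58, SE 0.26, edgeR adjusted p = 0.34), so that 2 of the 5 tested neighbours were separated on the lower side. ZNF471, the most abundant, had -0.12 (SE 0.24), ZNF542P 0.50 (SE 0.37) and ZNF264 0.24 (SE 0.48). Without DMSO replicate 2 ZNF542P was 0.13 and ZNF264 0.65, without DMSO replicate 3 they were 0.98 and 0.13, and without DMSO replicate 1 ZNF264 was 0.0321. The median was -0.12, but 0.0461 without DMSO replicate 2, -0.28 without SGC-CLK-1 replicate 2, -0.25 without DMSO replicate 1, 0.0789 with no filter and -0.30 with at least 10 counts in every library. ZIM2, which shares its start region with PEG3 and passed no filter, had 8 counts in SGC-CLK-1 replicate 3, 4 in DMSO replicate 3 and none elsewhere, and its reads may be split with PEG3. MIMT1 and USP29 had no counts.

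**Figure D5:**
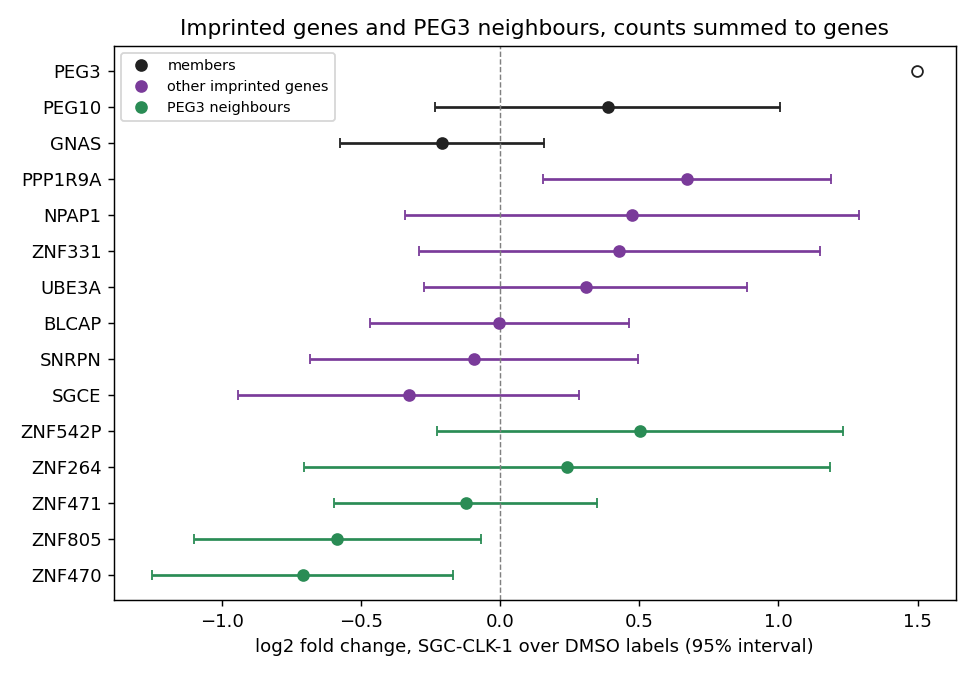
Log2 fold change (SGC-CLK-1 over DMSO labels, counts summed to genes) for the members, other imprinted genes and PEG3 neighbours that passed the filter, with 95% intervals for all but PEG3 (open point). PEG3, at 1.5, was chosen for this contrast; the other 14 lie between -0.71 and 0.67.

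The genes whose levels over the 6 libraries were most like those of PEG3, by Pearson correlation of log2 CPM, were CTPS2 (r = 0.996), ZNF652 (0.992), FBXO21 (0.989), BMPR2 (0.988) and HECA (0.987), of 6343 genes compared. This is a description over 6 libraries that share a group label, and 205 genes exceeded 0.9. FBXO21, for example, had 106, 96.5 and 115 CPM against 62.4, 53.5 and 34.9 CPM. Among imprinted genes PPP1R9A had r = 0.907, ZNF331 0.72, BLCAP 0.48, NPAP1 0.45, PEG10 0.34, UBE3A 0.25, SGCE 0.05, SNRPN -0.03 and GNAS -0.55.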

How the data were processed

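The authors mapped nanopore reads of the RM82 cDNA to human transcripts with minimap2 (version 2.22 in the submitters' processing notes), kept secondary alignments, removed duplicate UMIs and deposited an unnormalized count of UMIs per transcript and library. Which deduplication made these counts is not given in the sources used here. Transcripts missing from a library were set to 0. Of 93530 transcripts, 86362 matched GENCODE release 44, and these held 92.5% to 93.4% of the counts per library.

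Counts per transcript, and counts summed to genes, were tested in R 4.3.3 with edgeR 4.0.16 (filterByExpr, TMM scaling and the quasi-likelihood F-test, called at 0.05 after Benjamini-Hochberg adjustment over all features). diffSpliceDGE tested usage, DESeq2 1.42.0 was an alternative, and exact permutation tests were also run in R. Python 3.11.15 prepared the counts and drew the figures. Functions were tested on simulated data. Replicates differed beyond sampling noise (chi-square per degree of freedom 1.37 to 3.16).

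Members and lists were chosen with earlier results of these data known. Named were all members, every tested PEG3 transcript and each other member's most abundant transcript, or some of them where tied. Also named were the 5 most abundant genes of each list, any past the threshold and the 5 genes most like PEG3. A few others named beside a count were chosen after their values were seen. The CMI reports and the PCR cycle table were not used here. Alternatives were other scalings and filters, DESeq2, a single transcript per gene, a replicate block and leaving out each library.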

Additional observations from a re-analysis of the deposited data

How the results depend on the processing

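PEG3 was chosen for its rise in these same libraries, so its values under the alternatives are a description and give that rise no support. Its summed log2 fold change was 1.5 to 1.57 under other scalings, filters and DESeq2. The value was 1.73 with PEG3-201 alone, and 1.29 to 1.64 when each library was left out. The stricter filter, 10 counts in every library, left no PEG3 transcript. PEG10 ran from 0.14 (without SGC-CLK-1 replicate 1) to 0.65 (without DMSO replicate 3), and GNAS from -0.35 (without DMSO replicate 1) to -0.04 (GNAS-231 alone), with 0 calls. The 2 lists had 0 genes past 0.05 under every alternative. The median of the other imprinted genes was 0.15 with no filter and 0.17 with a single transcript per gene, and 0.13 to 0.38 when leaving out each library. The median of the PEG3 neighbours was 0.0789 with no filter, -0.30 with the stricter filter, and -0.28 to 0.0461 when leaving out each library; the cause was not tested. Small uncalled values changed sign. GNAS-231 was 0.00501 with library size only and -0.16 to 0.097 when leaving out each library (the highest without SGC-CLK-1 replicate 2). BLCAP was 0.0685 with library size only, 0.0138 with no filter, 0.0417 with the stricter filter, 0.00921 with the replicate block, and -0.14 to 0.15 when leaving out each library (the highest without DMSO replicate 1). SNRPN was -0.29 to 0.26 when leaving out each library (the highest without DMSO replicate 2), and ZNF471 reached 0.0461 without DMSO replicate 2. The difference in GNAS exon 3 share ranged from -0.53 (without SGC-CLK-1 replicate 2) to 4.93 percentage points.

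Deviations from the group means correlated little between same-numbered libraries (r = 0.06, 0.09 and -0.00). Between differently numbered libraries r ran from -0.12 to 0.07. Values this small cannot decide whether the numbers pair the libraries, so the main fits used no pairing and a block was the alternative. With the replicate block the PEG3 value was 1.49, and calls over all features went from 310 to 427 transcripts and from 15 to 36 genes. Those counts vary with the setting: 81 (without SGC-CLK-1 replicate 2) to 427 transcripts, with 162 under no filter, 173 under the stricter filter and 113 by DESeq2, and 1 (without SGC-CLK-1 replicate 2 or DMSO replicate 1) to 169 genes (no filter), with 107 by DESeq2, 64 under the stricter filter and 28 with library size only. Scaling moved the median of all genes by at most 0.08. At 362826 to 666702 counts per library, MEST, NDN, IGF2 and CDKN1C are too sparse to compare.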
